A study of Homo sapiens with 17 samples.

Results

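A549 is a human lung adenocarcinoma line that has lost the function of LKB1, a tumour suppressor kinase whose gene is STK11. Of the 6 A549 control arrays in a series of 17 arrays, 2 had lower levels of cell cycle genes than the other 4, and these 2 arrays are described here. They are pBABE replicate 1 and K78I replicate 2, called the low pair below. They were chosen by the measured mean of 65 cell cycle genes on these same arrays, each gene taken relative to its mean over the 6 controls. That mean was −0.83 log2 units on K78I replicate 2 and −0.33 on pBABE replicate 1. The nearest array on the other side was K78I replicate 3 at 0.06, followed by K78I replicate 1 at 0.31, pBABE replicate 3 at 0.36 and pBABE replicate 2 at 0.42. Since the choice used this contrast, every difference between the low pair and the other 4 controls is given as a description, without a test.

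The study compared lines given LKB1 back with control lines. A549 and H2122, a further lung adenocarcinoma line without functional LKB1, had been infected with the retroviral vector pBABE that was empty or held either wild-type LKB1 or its kinase-dead mutant K78I, and RNA was measured on Affymetrix arrays from 130 ng of total RNA. All cultures had been selected for 2 weeks in 1 µg/mL puromycin, were grown with 5% fetal bovine serum and, per the labels, were taken in logarithmic growth. Each A549 construct had 3 arrays, and in H2122 pBABE had 2, LKB1 3 and K78I 3. The titles write the K78I arrays as LKB1KD, which stands for kinase-dead. The labels do not say whether the selected cultures were clones, nor whether the replicates are separate cultures. A p-value here therefore reflects the spread among arrays, which may be technical, and precision is limited by how few arrays there are. In bulk RNA, fewer cells in a given state and less RNA per cell cannot be told apart.

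Cells that pass from G1 into S phase turn on DNA replication and cyclin E genes through E2F factors, and genes for mitosis follow in G2. When growth factors or nutrients run low, cells leave this cycle, and brakes such as the cyclin-dependent kinase inhibitors p21 and p27 rise. Cyclic AMP acts through CREB and its CRTC coactivators, which LKB1 restrains through the SIK kinases, and ATF4 is the factor that carries the response to amino acid shortage and other stresses.

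The level of STK11 has to be given before any result, because on 2 arrays it goes against the label. On the low pair it was 6.88 and 7.14, on pBABE replicates 2 and 3 7.38 and 10.52, on K78I replicates 1 and 3 10.54 and 10.42, and on the LKB1 arrays 9.42 to 10.23 (log2 levels). The array labelled K78I replicate 2 thus lacked the transcript its construct should give, and the array labelled pBABE replicate 3 had it. In STK11 the former resembled pBABE replicates 1 and 2 and the latter K78I replicates 1 and 3; whether the labels of these arrays were exchanged was not tested. Both arrays keep their labels here. The low pair and pBABE replicate 2 are the 3 A549 arrays with low STK11, so STK11 moves with the split (difference of means −2.71), and its part in the results was not tested. For this reason the main values are also given against pBABE replicate 2 alone.

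Promoter sequences of 5 genes are shown because each holds a motif of a group described below: TXNIP led the higher genes, NR4A3 and EGR1 represent cyclic AMP and immediate early targets, and UHRF1 and MCM3 represent the replication genes. Each is the 250 bases before the annotated start from RefSeq (GRCh38.p14), written 5′ to 3′ on the gene's own strand, and 459 of the 594 genes described below had such an entry. Capitals mark letters found by a search of both strands. In TXNIP (chr1:145996580-145996829, minus strand) they mark a paired E-box, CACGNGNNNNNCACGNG with N for any base, which starts 88 bases before the start. In NR4A3 (chr9:99821635-99821884, plus strand) and EGR1 (chr5:138465229-138465478, plus strand) they mark the cyclic AMP response element core TGACG, or CGTCA on the other strand. In UHRF1 (chr19:4909251-4909500, plus strand) and MCM3 (chr6:52284743-52284992, minus strand) they mark an E2F site, any of TTTCCCGC, TTTGGCGC, TTTCGCGC and TTTGCCGC on either strand.
TXNIP: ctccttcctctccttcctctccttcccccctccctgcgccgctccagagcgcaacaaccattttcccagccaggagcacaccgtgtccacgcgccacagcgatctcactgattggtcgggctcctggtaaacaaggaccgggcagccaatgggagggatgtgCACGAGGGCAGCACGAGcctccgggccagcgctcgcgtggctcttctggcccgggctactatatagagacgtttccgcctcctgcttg
NR4A3: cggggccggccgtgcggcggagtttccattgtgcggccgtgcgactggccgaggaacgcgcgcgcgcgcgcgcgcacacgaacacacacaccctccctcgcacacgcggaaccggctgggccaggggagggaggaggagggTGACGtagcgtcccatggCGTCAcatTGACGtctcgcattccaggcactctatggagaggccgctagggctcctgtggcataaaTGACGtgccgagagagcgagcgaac
EGR1: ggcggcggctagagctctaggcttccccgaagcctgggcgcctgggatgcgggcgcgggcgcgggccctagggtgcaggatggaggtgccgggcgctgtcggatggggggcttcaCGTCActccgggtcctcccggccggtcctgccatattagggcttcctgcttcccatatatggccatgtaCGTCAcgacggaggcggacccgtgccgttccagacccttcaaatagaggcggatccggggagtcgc
UHRF1: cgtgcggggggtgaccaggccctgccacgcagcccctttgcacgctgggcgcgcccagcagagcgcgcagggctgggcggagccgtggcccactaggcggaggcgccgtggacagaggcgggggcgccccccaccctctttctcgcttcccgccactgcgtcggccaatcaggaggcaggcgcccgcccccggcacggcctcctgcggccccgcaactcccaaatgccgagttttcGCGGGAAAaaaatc
MCM3: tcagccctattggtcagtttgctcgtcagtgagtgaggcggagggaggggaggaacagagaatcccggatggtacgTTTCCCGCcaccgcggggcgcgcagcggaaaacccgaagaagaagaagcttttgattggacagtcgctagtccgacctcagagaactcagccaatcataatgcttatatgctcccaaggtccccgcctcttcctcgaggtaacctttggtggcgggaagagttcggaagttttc

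The paired E-box was present in 16 of 27305 promoters (0.0586%), and ARRDC4, described with TXNIP below, had no match to it in its window and 1 plain E-box, CACGTG. The core TGACG, which the full element TGACGTCA holds on each strand, was present in 21.7% of all promoters and in 25.9% of those of the genes measured. It was found in 9 of 18 promoters of CREB targets (50%) and in 10 of 13 of immediate early genes (76.9%), and also in 12 of 28 of DNA replication and G1/S genes (42.9%) and in 9 of 27 of G2 and mitosis genes (33.3%). Among the genes at least 2-fold apart as defined below, it was found in 85 of 278 promoters of those higher on the low pair (30.6%) and 37 of 181 of those lower (20.4%). The E2F site was present in 2.79% of all promoters and in 3.79% of those of the genes measured. It was found in 11 of 28 promoters of DNA replication and G1/S genes (39.3%) and in 2 of 27 of G2 and mitosis genes (7.41%). In the same sets the E2F site was found in 15 of 181 promoters of genes lower on the low pair (8.29%) and 7 of 278 of those higher (2.52%). The motifs were chosen after the values had been seen, and a match is a description of the sequence.

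The 4 genes named as markers of this split did not differ alike. Values for the other 4 controls are given throughout in the order pBABE replicates 2 and 3, then K78I replicates 1 and 3, and all levels are log2. MKI67, the proliferation antigen Ki-67, was 9.52 and 9.15 on the low pair and 10.29, 10.41, 10.29 and 10.09 on the other controls, a difference of −0.93. TOP2A, the topoisomerase of dividing cells, was 11.04 and 10.70 against 11.41, 11.36, 11.15 and 11.24, a difference of −0.42. Both genes were lower on both arrays without overlap; they are among the genes by which the arrays were chosen. EGR1, an immediate early transcription factor, was 9.86 and 10.45 against 6.43, 5.78, 7.90 and 9.52, higher by 2.75, although K78I replicate 3 lay close below pBABE replicate 1. PDE4D, which breaks down cyclic AMP, was 10.69 and 10.65 against 10.56, 10.33, 10.28 and 10.56, a difference of 0.24 that is small beside its distance from the LKB1 arrays (9.44 to 9.69).

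Across 17958 genes, 359 were higher on the low pair (2.0%) and 235 lower (1.31%) by at least 2-fold between the means with both arrays beyond all of the other 4. These are called separated below. At any size, 2781 genes were higher without overlap (15.5%) and 3162 lower (17.6%), and the median difference over all genes was −0.02. The 2 arrays did not contribute equally. K78I replicate 2 without pBABE replicate 1 gave 678 higher and 684 lower, and pBABE replicate 1 without K78I replicate 2 gave 262 and 73. Within constructs, pBABE replicate 1 differed from pBABE replicates 2 and 3 in 327 genes higher and 102 lower, and K78I replicate 2 from K78I replicates 1 and 3 in 628 and 670. Without the 2 arrays whose STK11 goes against the label, which leaves pBABE replicate 1 against 3 controls, the counts were 232 and 48. On those arrays MKI67 differed by −0.70, CCNE2 by −1.09, TXNIP by 4.16, EGR1 by 1.92, NR4A3 by 2.13, PPARGC1A by 2.27 and DDIT3 by 1.46. Their direction could not change, since in these genes both low arrays lie beyond all of the other 4.

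The low pair was no tighter than the other controls. The SD of the difference between its 2 arrays over all genes was 0.382, against 0.264 to 0.347 for the 6 pairs among the other 4 controls. Pairs of a low array with another control had SDs of 0.351 to 0.624. For pBABE replicate 1 the SD was 0.351 with K78I replicate 3 and 0.368 with pBABE replicate 2, below that with K78I replicate 2. Its SDs with K78I replicate 1 and pBABE replicate 3 were 0.422 and 0.455. K78I replicate 2 was nearest to pBABE replicate 1, and its SDs with the other 4 controls were 0.541 to 0.624. The array medians lay between 5.62 and 5.73 over all 17 arrays, since the deposited values had been made alike in distribution.

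Which other control came nearest to the low pair was uneven. For the 359 higher genes the next array was K78I replicate 3 in 191 (53.2%), pBABE replicate 2 in 134 (37.3%), K78I replicate 1 in 22 and pBABE replicate 3 in 12. For the 235 lower genes it was K78I replicate 3 in 139 (59.1%) and pBABE replicate 2 in 62 (26.4%). The control that shares low STK11 is pBABE replicate 2. Against it alone, 283 of the higher genes (78.8%) and 181 of the lower (77.0%) differed at least 2-fold. This control was among those used to define the separated genes, so both low arrays lie beyond it in every such gene. High shares follow largely from that choice, and they cannot show whether the split is separate from STK11. In 336 of the higher (93.6%) and 220 of the lower (93.6%) both low arrays also lay beyond every A549 LKB1 array on the same side. Genes chosen as extreme on the low pair tend to lie beyond further arrays of the same line, so these shares are a description.

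**Figure D1:**
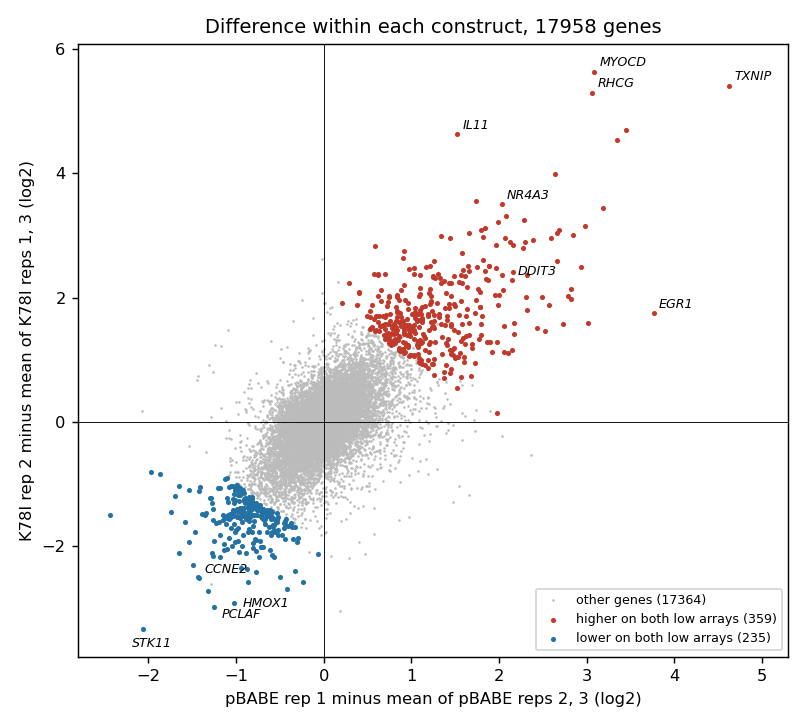
Differences within each construct for 17958 genes, as pBABE replicate 1 minus the mean of pBABE replicates 2 and 3 (horizontal, log2) and K78I replicate 2 minus the mean of K78I replicates 1 and 3 (vertical, log2). Red points are the 359 separated genes higher on the low pair, blue points the 235 lower and grey points all others; TXNIP lies far out in both directions of comparison, at 4.62 and 5.42.

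DNA replication and G1/S genes were the most uniform group. All 32 measured of 34 listed were lower on both low arrays without overlap (17.6% of all genes). Of these 23 were separated and lower (1.31% of all genes). The median difference of the list was −1.18, and the rule had used all 32. CLSPN, a checkpoint adaptor at replication forks, was 6.46 and 4.78 on the low pair and 7.84, 7.73, 7.80 and 7.22 on the other controls (−2.03). CCNE2, a cyclin E that drives entry into S phase, was 6.36 and 4.77 against 7.78, 7.79, 7.68 and 6.90 (−1.97). In both genes K78I replicate 2 lay well below pBABE replicate 1, and K78I replicate 3 was the lowest of the other controls.

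Further members followed the same order of arrays. MCM10, needed to activate the replicative helicase, was 7.36 and 6.50 against 8.90, 8.89, 8.74 and 8.12 (−1.74). The other cyclin E, CCNE1, was 6.69 and 5.6 against 7.75, 7.98, 8.08 and 7.47 (−1.68). All 6 subunits of the MCM2-7 helicase were separated, with differences from −1.47 for MCM4 to −1.05 for MCM6. UHRF1 (−1.42), which maintains DNA methylation at replication, and MCM3 (−1.37), whose promoters are shown above, were separated too. The smallest differences were those of the clamp loader subunits RFC4 (−0.59) and RFC3 (−0.62). The median within pBABE was −0.87 and within K78I −1.43.

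Genes of G2 and mitosis differed less. Of 33 measured of 36, 29 were lower without overlap (17.6% of all genes) and 0 were separated. The median was −0.53, at −0.60 within pBABE and −0.51 within K78I. MYBL2, a transcription factor of the mitotic programme, was 9.77 and 9.37 against 10.64, 10.57, 10.58 and 10.35 (−0.97). CCNB1, the cyclin of mitotic entry, was 9.65 and 9.23 against 10.43, 10.44, 10.36 and 10.11 (−0.89). The 4 members with overlapping arrays were UBE2C (−0.46), KIF2C (−0.19), HMMR (−0.06) and the mitotic kinase AURKA (0.07). The low levels were thus deeper in replication genes than in mitotic genes. Relative to the control mean, the list mean on K78I replicate 2 was −1.21 for replication and −0.46 for mitosis genes, the lowest of the controls. Within constructs, the mitosis median was instead lower within pBABE (−0.60) than within K78I (−0.51). The rule that chose the low pair had used all of these genes, so these depths are a description.

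**Figure D2:**
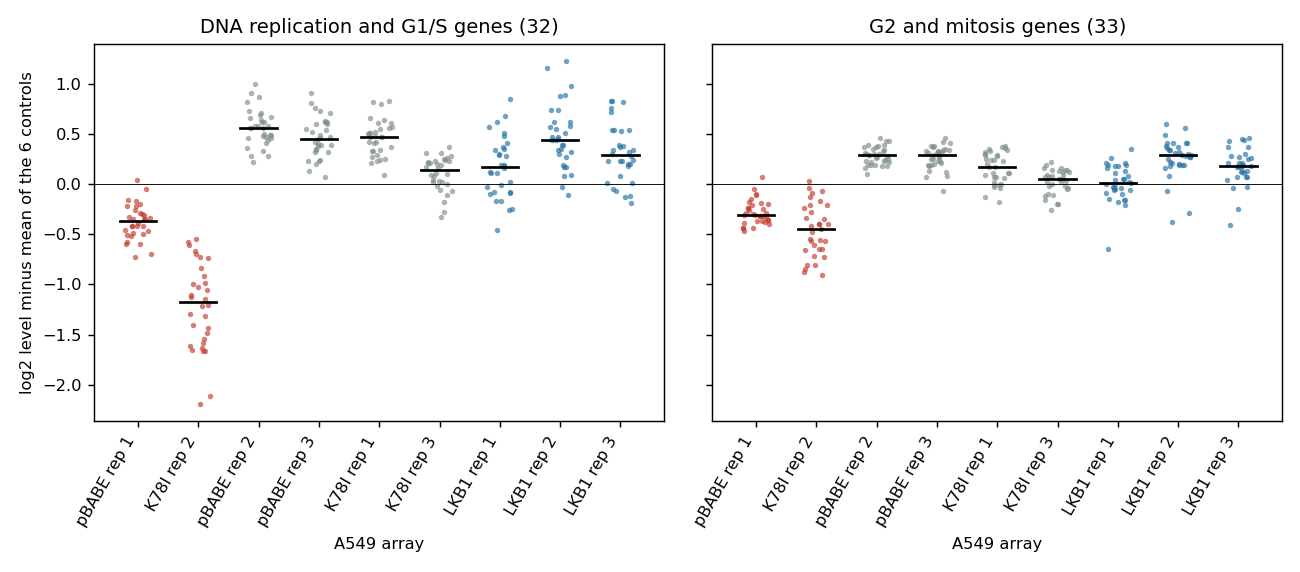
Log2 level of each replication gene (left, 32 genes) and mitosis gene (right, 33 genes) minus that gene's mean over the 6 A549 controls, on 9 A549 arrays; bars are medians. The 2 low arrays (red) lie below the other 4 controls (grey) and the LKB1 arrays (blue), and K78I replicate 2 lies lowest for replication genes.

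Replication-dependent histones did not go with the other S phase genes. Of 15 measured, 1 was separated and lower (1.31% of all genes). This was the linker histone H1-5, at 8.36 and 9.24 against 10.55, 10.11, 9.93 and 10.18 (−1.39). The list median was 0.11. The arrays of the low pair moved apart for this list, with a mean of −0.48 on pBABE replicate 1 and 0.40 on K78I replicate 2 relative to the 6 controls. H1-3 shows this, at 6.92 and 8.81 on the low pair and 8.50, 8.23, 7.70 and 8.58 on the others. Histone transcripts end without a poly(A) tail, and near-identical copies of these genes can share probes, so their values are uncertain.

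Genes that hold back the cycle were mixed. Of 23 measured cyclin-dependent kinase inhibitors, D cyclins and quiescence genes, 5 were separated and higher and 0 lower (2.0% and 1.31% of all genes). The list median was 0.02. CDKN1A, which encodes p21, was 8.24 and 8.95 against 7.19, 7.10, 7.80 and 7.46 (1.21). CDKN1B, which encodes p27, was 8.82 and 9.27 against 8.56, 7.76, 7.99 and 8.32 (0.88) and was not 2-fold. The Krüppel-like factors KLF4 (1.84) and KLF6 (1.63) the antiproliferative BTG1 (1.02) and TXNIP, described next, were the others. The D cyclins CCND1 (−0.29), CCND2 (−0.05) and CCND3 (0.06) overlapped. RBL1, the pocket protein p107 and itself an E2F target, differed by −0.90 without overlap. The D cyclins, and further list members given below as genes that did not separate, were picked after their values had been seen.

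TXNIP had the largest difference of all genes. This arrestin-like protein limits glucose uptake and is transcribed when the glucose sensor MondoA is active. It was 9.85 and 11.09 on the low pair, 5.74, 4.71, 5.08 and 6.26 on the other controls and 4.19 to 6.04 on the LKB1 arrays, a difference of 5.02, or 32.5-fold. Its relative ARRDC4, regulated by the same sensor, was 8.53 and 10.09 against 5.28, 4.88, 5.21 and 5.56 (4.07). For both genes the other 7 A549 arrays, LKB1 included, lay at or below 6.26.

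The other genes with the largest differences had unrelated functions. MYOCD, a coactivator of SRF in muscle, was 9.68 and 10.67 against 7.62, 5.58, 4.77 and 5.29 (4.36), with pBABE replicate 2 between the groups. RHCG, an ammonium transporter, was 9.21 and 10.99 against 6.64, 5.66, 5.93 and 5.43 (4.18). CEACAM7 (3.94), the granule protein CHGB (3.31), the matrix protein SMOC1 (3.06) and the scavenger receptor SCARA5 (2.85) were also among the 12 highest. PDK4, which blocks entry of pyruvate into the mitochondrial cycle, was 10.32 and 10.50 against 8.44, 6.51, 6.92 and 8.07 (2.92). In MYOCD, SMOC1, PDK4 and SCARA5 pBABE replicate 2 was the highest of the other controls.

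Among the 12 lowest genes, STK11 apart, 4 act in DNA replication or entry into it, namely PCLAF (−2.12), which binds the replication clamp, CLSPN, CCNE2 and MCM10. HMOX1, the stress-induced enzyme that degrades heme, was 8.05 and 6.02 against 9.10, 9.04, 9.14 and 8.76 (−1.98). EGLN3, an oxygen-sensing prolyl hydroxylase, was 6.62 and 5.80 against 8.23, 8.31, 8.36 and 7.48 (−1.89). CCL2, a monocyte chemokine, was 7.45 and 8.25 against 9.11, 10.69, 10.62 and 8.90 (−1.98), and pBABE replicate 1 was lower than K78I replicate 2. FAM111B (−1.90), OTULINL (−1.97), NFE2L3 (−1.73) and RASSF2 (−1.72) completed the set.

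**Figure D3:**
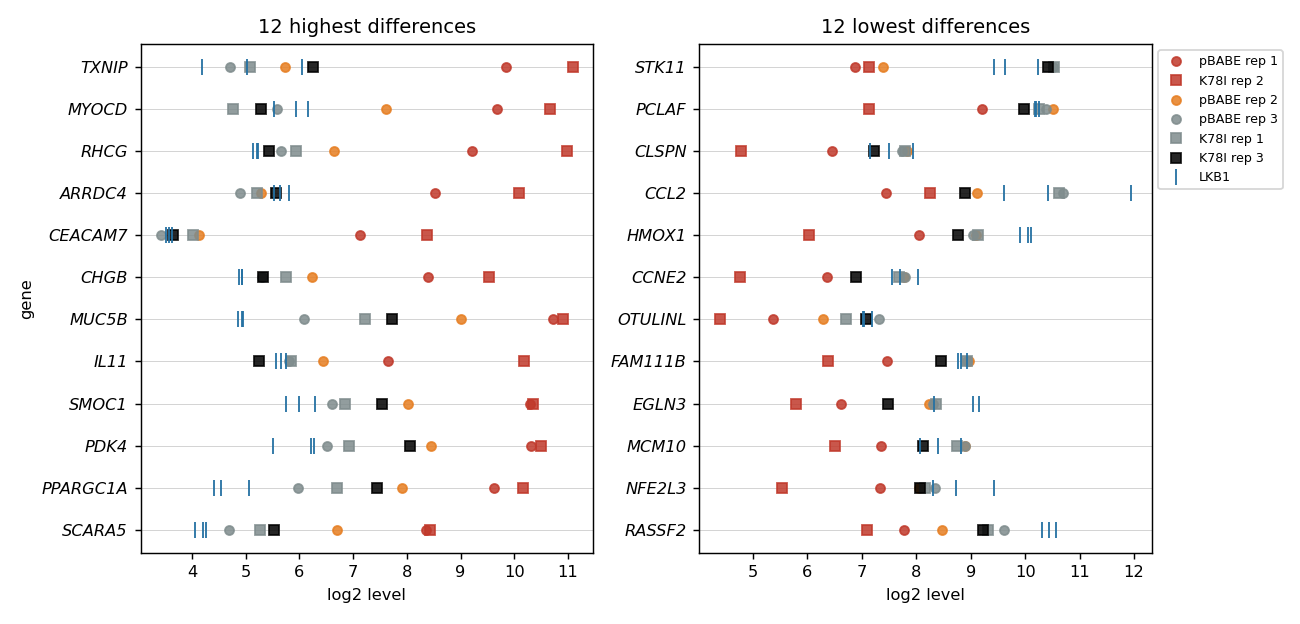
Log2 levels of the 12 separated genes with the highest and the 12 with the lowest differences on each A549 array. Red symbols are the low pair, orange is pBABE replicate 2, black is K78I replicate 3, grey are pBABE replicate 3 and K78I replicate 1 and blue ticks are LKB1; TXNIP shows the widest gap and STK11 places pBABE replicate 2 with the low pair.

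Targets of CREB and its CRTC coactivators were higher as a group. Of 20 measured of 22, 14 were separated and higher and 0 lower (2.0% and 1.31% of all genes). The median was 1.53 beside −0.02 over all genes. NR4A3, an orphan nuclear receptor, was 8.68 and 9.61 against 7.44, 5.87, 5.85 and 6.36 (2.77). Its relatives NR4A2 and NR4A1 differed by 2.51 and 2.20. PPARGC1A, the coactivator of mitochondrial biogenesis and gluconeogenesis, was 9.62 and 10.16 against 7.91, 5.97, 6.70 and 7.44 (2.88). The cyclooxygenase PTGS2 was 9.79 and 11.04 against 8.39, 7.88, 7.85 and 9.21 (2.08).

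The other controls were not alike for these targets. The mean of the list relative to the 6 controls was 0.75 and 1.25 on the low pair, −0.01 on pBABE replicate 2, and −0.89, −0.63 and −0.48 on pBABE replicate 3 and K78I replicates 1 and 3. On the LKB1 arrays it was −1.42 to −1.69. The low pair was thus highest, pBABE replicate 2 stood between, and the 3 controls with high STK11 came next, above the LKB1 arrays. Against pBABE replicate 2 alone the median difference of the list was 0.99, and that of NR4A3 was 1.71 and of PPARGC1A 1.98.

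Of 10 measured phosphodiesterases, which hydrolyse cyclic AMP, 5 were higher without overlap (15.5% of all genes) and 1 was separated and higher (2.0%). That gene was PDE3A, at 10.43 and 11.05 against 9.51, 9.11, 9.14 and 9.63 (1.39), and the list median was 0.27. PDE4B was 7.31 and 7.47 against 7.04, 7.08, 7.13 and 7.09 (0.30), while the LKB1 arrays stood at 4.90 to 5.02. PDE10A differed by 0.97 and PDE8A by 0.45. PDE7B was 6.87 and 6.33 against 6.61, 5.33, 4.89 and 5.04 (1.13), where pBABE replicate 2 lay between the low arrays.

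Immediate early genes and AP-1 subunits were higher on the low pair and, among the controls, lowest on pBABE replicates 2 and 3 (list means −0.60 and −0.68). Of 20 measured, 12 were separated and higher and 0 lower (2.0% and 1.31% of all genes), with a median of 1.07. FOS and FOSB are counted in the CREB target list as well. JUN, an AP-1 subunit, was 8.86 and 10.65 against 6.75, 7.47, 7.53 and 8.79 (2.12). ATF3, a stress-induced transcription factor, was 7.83 and 8.56 against 5.58, 5.11, 5.91 and 7.19 (2.25). FOSL2 differed by 2.19, CCN1 by 2.04 and JUND by 1.52. In JUN and ATF3, as in EGR1, K78I replicate 3 was the highest of the other controls. JUNB (−0.53) and MYC (0.03) overlapped.

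Negative feedback genes of the MAPK pathway went partly the same way. Of 20 measured, 7 were separated and higher and 1 lower (2.0% and 1.31% of all genes), with a median of 0.42. DUSP4, a nuclear phosphatase that inactivates ERK, was 9.38 and 9.98 against 7.67, 6.54, 7.02 and 7.36 (2.53). DUSP5, a nuclear ERK phosphatase too, was 9.56 and 10.14 against 8.37, 6.82, 7.10 and 7.47 (2.41). DUSP6, its cytoplasmic counterpart, was 7.86 and 8.57 against 6.16, 6.26, 7.33 and 7.03 (1.52). DUSP7 was separated in the other direction (−1.38), and the Sprouty genes SPRY1 (0.17), SPRY2 (0.80) and SPRY4 (0.38) and the Ets factors ETV4 (0.18) and ETV5 (0.15) were not separated. Of 11 EGF-family ligands and receptors, the ligands HBEGF (1.86) and EREG (1.5) were separated and higher, and the receptor EGFR (0.45) overlapped.

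Genes of hepatic, gastrointestinal and mucinous lineages, which A549 expresses, were higher too. Of 19 measured, 11 were separated and higher and 1 lower (2.0% and 1.31% of all genes), with a median of 1.26. MUC5B, a secreted airway mucin, was 10.73 and 10.90 against 9.0, 6.08, 7.21 and 7.73 (3.31). The fibrinogen chain FGA was 10.14 and 10.01 against 8.64, 6.33, 7.0 and 7.85 (2.62), and FGB and FGG differed by 2.77 and 2.41. AGR2, a disulfide isomerase of mucus-secreting cells, was 11.72 and 12.17 against 10.69, 9.0, 9.54 and 10.23 (2.08). In MUC5B, FGA and AGR2 pBABE replicate 2 was nearest to the low pair. FOXA1, a pioneer factor of endodermal lineages, was separated and lower (−1.07), while FOXA2 (−0.25) overlapped. Against pBABE replicate 2 alone the list median was 0.91.

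ATF4 response genes divided the controls in another way. The list mean relative to the 6 controls was 0.48 and 0.23 on the low pair, 0.58 on K78I replicate 3, and −0.41, −0.51 and −0.37 on pBABE replicates 2 and 3 and K78I replicate 1. Of 25 measured, 5 were separated and higher and 1 lower (2.0% and 1.31% of all genes). The median was 0.50, at 0.85 within pBABE and 0.14 within K78I. DDIT3, the stress factor CHOP, was 9.70 and 10.89 against 7.48, 7.61, 7.64 and 9.58 (2.22). TRIB3, a pseudokinase it induces, was 10.72 and 10.87 against 8.23, 7.76, 8.25 and 10.34 (2.15). SESN2, a leucine sensor that restrains mTORC1, was 8.98 and 9.42 against 6.74, 6.89, 7.27 and 8.73 (1.79). In these 3 genes K78I replicate 3 lay just below the low pair and far above the remaining 3 controls. PSPH, an enzyme of serine synthesis, was separated and lower (−1.19).

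Other stress lists had fewer separated genes. Over all genes 2.0% were separated and higher and 1.31% separated and lower, and 17.6% were lower without overlap. Of 13 endoplasmic reticulum chaperones 1 was separated, the co-chaperone DNAJB9 at 8.68 and 9.22 against 6.96, 6.69, 6.81 and 7.02 (2.07), while HSPA5, the main chaperone there, differed by 0.74. All 9 heat shock genes had negative differences, with a median of −0.58; 3 were lower without overlap and 1 was separated, the small heat shock protein HSPB1 at 11.24 and 10.56 against 11.73, 11.92, 12.06 and 11.99 (−1.02). The inducible HSPA1A was 9.99 and 7.93 against 11.40, 11.17, 11.59 and 9.51, where K78I replicate 3 was lower than pBABE replicate 1. Of 19 p53 targets 3 were separated, all higher: GDF15 (1.63), CDKN1A and the death receptor TNFRSF10B (1.13). The p53 targets MDM2 (0.34), BAX (−0.30) and FAS (−0.12) were not separated.

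Sterol and fatty acid synthesis genes were lower in part. Of 17 measured, 3 were separated and lower and 0 higher (1.31% and 2.0% of all genes), with a median of −0.45. FASN, the fatty acid synthase, was 8.20 and 7.63 against 9.59, 9.53, 9.66 and 8.59 (−1.43). INSIG1, which retains the sterol sensor in the endoplasmic reticulum, was 6.25 and 5.62 against 7.74, 7.54, 7.48 and 6.75 (−1.45). SQLE (−1.09) was the third, HMGCS1 went the other way (0.99), and K78I replicate 3 was again nearest to the low pair in FASN, INSIG1 and SQLE. Of 20 hypoxia and glycolysis genes 1 was separated, EGLN3, and enzymes such as LDHA (−0.15) and ENO1 (−0.11) lay near 0. Of 23 respiratory chain and ATP synthase genes and of 18 ribosome biogenesis genes and MYC targets 0 were separated, with medians of 0.02 and −0.20.

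Targets of NRF2, which is constitutively active in A549, were lower mainly on K78I replicate 2. Of 19 measured, 3 were separated and lower and 0 higher (1.31% and 2.0% of all genes). The medians were −0.06 within pBABE and −0.49 within K78I. GCLM, a subunit of the enzyme of glutathione synthesis, was 8.73 and 6.71 against 9.09, 9.38, 9.42 and 9.0 (−1.5). The others were HMOX1 and OSGIN1 (−1.34), whereas NQO1 (−0.13) and the aldo-keto reductases AKR1C1 (−0.12) and AKR1B10 (−0.01) overlapped. Cytokines and NF-κB targets were higher mainly on K78I replicate 2 as well, with medians of 0.14 within pBABE and 0.60 within K78I. Of 19 measured, 5 were separated and higher and 1, CCL2, lower (2.0% and 1.31% of all genes). IL11, a cytokine of the IL-6 family, was 7.64 and 10.18 against 6.45, 5.80, 5.83 and 5.25 (3.08), and the chemokine CXCL2 differed by 1.82, while IL6 (0.07) and TNF (−0.00) overlapped.

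The counts of separated genes that follow stand beside 2.0% higher and 1.31% lower over all genes. Of 15 YAP and TEAD targets 1 was separated and higher, CCN1, with a list median of 0.67. ANKRD1, at 6.71 and 8.93 against 4.98, 5.86, 6.71 and 8.0, overlapped. Of 17 matrix and TGF-beta response genes 2 were separated and lower, COL1A1 at 5.71 and 5.59 against 6.18, 7.81, 6.77 and 6.86 (−1.26) and LOXL2 (−1.27); both code for or crosslink collagen, and both stood far higher on the LKB1 arrays (10.02 to 10.78 and 9.12 to 9.99). Of 17 lysosome and autophagy genes 2 were separated and higher, the autophagosome proteins GABARAPL1 (1.55) and MAP1LC3B (1.22), while LAMP1 (−0.06) and TFEB (−0.29) were not. Of 21 interferon-stimulated genes 0 were separated, and of 219 small nucleolar and spliceosomal RNAs 3 were, all lower.

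**Figure D4:**
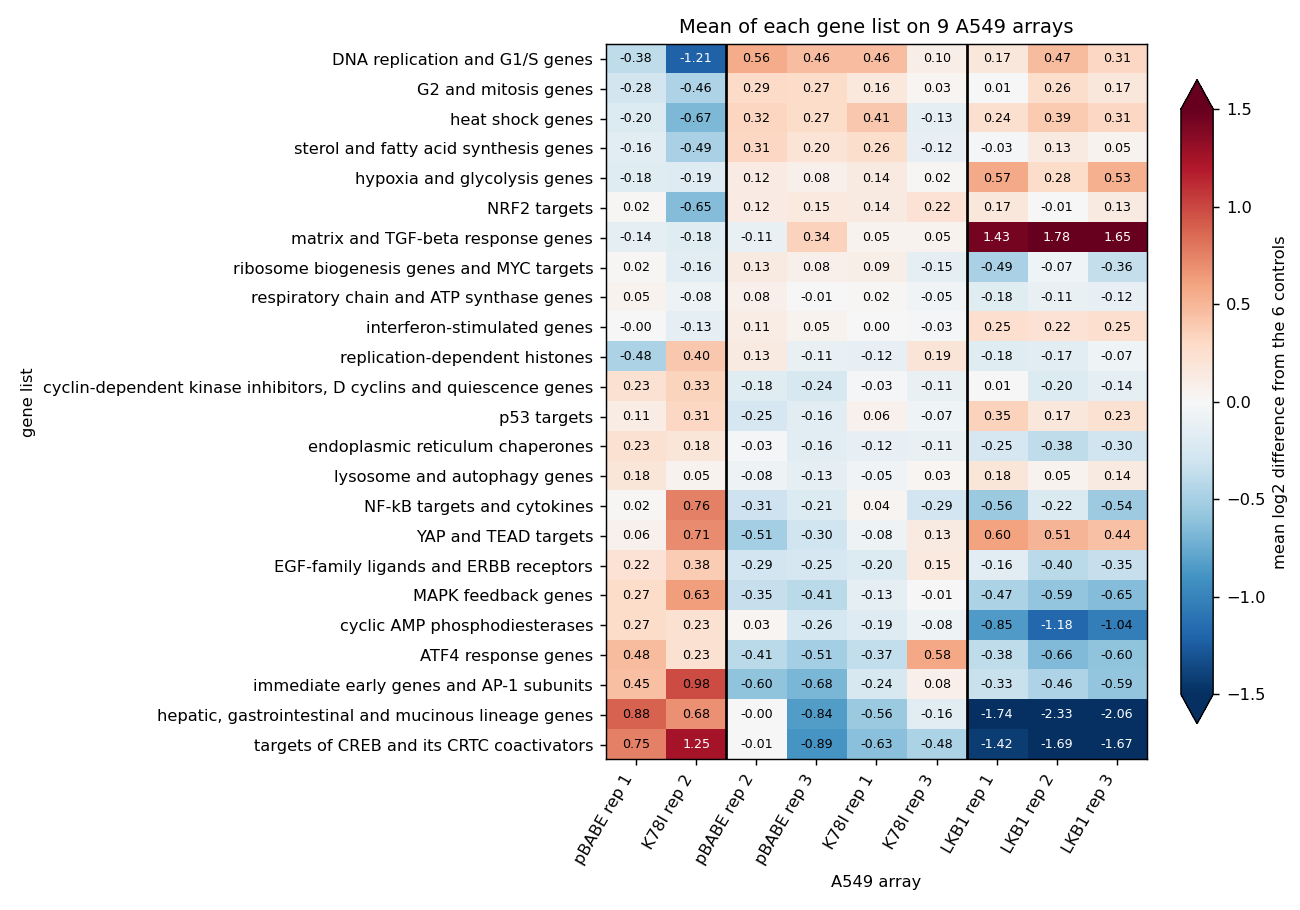
Mean log2 difference of 24 gene lists from their mean over the 6 A549 controls, on 9 A549 arrays; the vertical lines set off the low pair on the left and the LKB1 arrays on the right. The targets of CREB run from 1.25 on K78I replicate 2 to −1.69 on LKB1 replicate 2, and the ATF4 list is highest on K78I replicate 3 at 0.58.

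Markers of other cells were not separated between the groups, in none of 6 fibroblast, 5 leukocyte and 4 endothelial markers. Their list means on the 6 controls, relative to those controls, ran from −0.12 to 0.07, −0.17 to 0.09 and −0.18 to 0.10. The defining markers PTPRC (3.02 and 3.05 on the low pair), DCN (2.59 and 2.82) and CDH5 (4.23 and 4.42) stayed near the low end of the scale on all A549 arrays. CD68, a lysosomal protein on the leukocyte list, was 9.12 and 9.01 against 8.83, 7.97, 8.45 and 8.30 and did not overlap. Of the carcinoma keratins, KRT8 was 13.12 and 13.11 and KRT18 13.02 and 12.89 on the low pair, while KRT19 was 4.19 and 4.87 there and 4.84, 4.4, 5.48 and 4.45 on the other controls, low on all 6. Of 20 genes that mark H2122 against the A549 LKB1 arrays, 2 were separated and higher (2.0% of all genes). The mean of this list on the low pair was 0.09 and 0.21 relative to the A549 controls, where the H2122 arrays stood at 5.78 to 6.12.

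Of the arrays that the choice had not used, H2122 pBABE replicate 2 also has low cell cycle genes, as earlier results of these data had shown. Its source name gives LKB1 where its title and construct label give pBABE, and the source names of LKB1 replicate 3 and K78I replicate 3 in this line differ from their titles too. Its STK11 level was 6.22, beside 6.33 on pBABE replicate 1. With 1 array on each side there is no test, and the difference was described as replicate 2 minus replicate 1. At least 2-fold, 557 genes were higher (3.10%) and 523 lower (2.91%); after each array had been centred on its median these were 379 and 731. Replicate 2 was above the other 7 H2122 arrays in 4304 genes (24%) and below them in 3652 (20.3%). At any size, 47.5% of genes were higher and 52.2% lower.

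The cell cycle genes were lower on this array in both phases. All 65 lay below the other 7 H2122 arrays (20.3% of all genes), with medians of −1.71 for replication and −1.70 for mitosis genes. MKI67 was 8.58, while the other 7 arrays ranged from 10.34 to 10.55 with a median of 10.47. In A549 the mitosis list had differed by a median of −0.53; whether the lines differ in this was not tested.

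Genes separated in A549 shared a direction with H2122 in part. Of the 359 higher, 238 were higher on H2122 pBABE replicate 2 (66.3%), 63 of them at least 2-fold (17.5%), and 7 were lower by at least 2-fold. Of the 235 lower, 192 were lower (81.7%), 82 at least 2-fold (34.9%), and 2 were higher by at least 2-fold. These shares include the cell cycle genes by which both sets of arrays are known.

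TXNIP was 12.07 on H2122 pBABE replicate 2 and 9.63 to 10.71 on the other 7 H2122 arrays, with a median of 9.74. ARRDC4 was 8.91 against 6.97 to 7.75. Both genes were thus highest on the array with low cell cycle genes in this line as well, although the TXNIP level of all H2122 arrays was above that of the 7 other A549 arrays. PDK4 (4.66 to 7.07 from replicate 1 to replicate 2), PPARGC1A (6.70 to 8.95), MUC5B (7.49 to 10.23) and SMOC1 (8.52 to 10.54) were also above the other 7. MYOCD (5.69 to 4.01) was below them, and RHCG and CEACAM7 lay within their range at 4.59 and 3.27.

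Among the ATF4 response genes, of 25 measured 21 lay above the other 7 arrays and 12 were at least 2-fold higher, with a median of 0.94. The A549 median was 0.50, at 0.85 within pBABE and 0.14 within K78I. ASNS, asparagine synthetase, went from 8.27 to 10.31 and CHAC1, which degrades glutathione, from 6.66 to 9.66. The CREB targets were mixed. Their median was −0.03, with 7 of 20 above and 3 below the other arrays, and 4 were at least 2-fold higher and 0 lower. NR4A2 (8.45 to 9.69) was above the other 7, while NR4A3 (5.94 to 5.79) and PTGS2 (10.34 to 10.14) lay within their range. Immediate early genes had a median of 0.28 and JUN (8.12 to 7.38) was below the other 7. The lineage list had a median of 0.61 and the YAP list −0.38. Heat shock genes were lower in both lines, with medians of −0.58 in A549 and −0.45 in H2122.

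**Figure D5:**
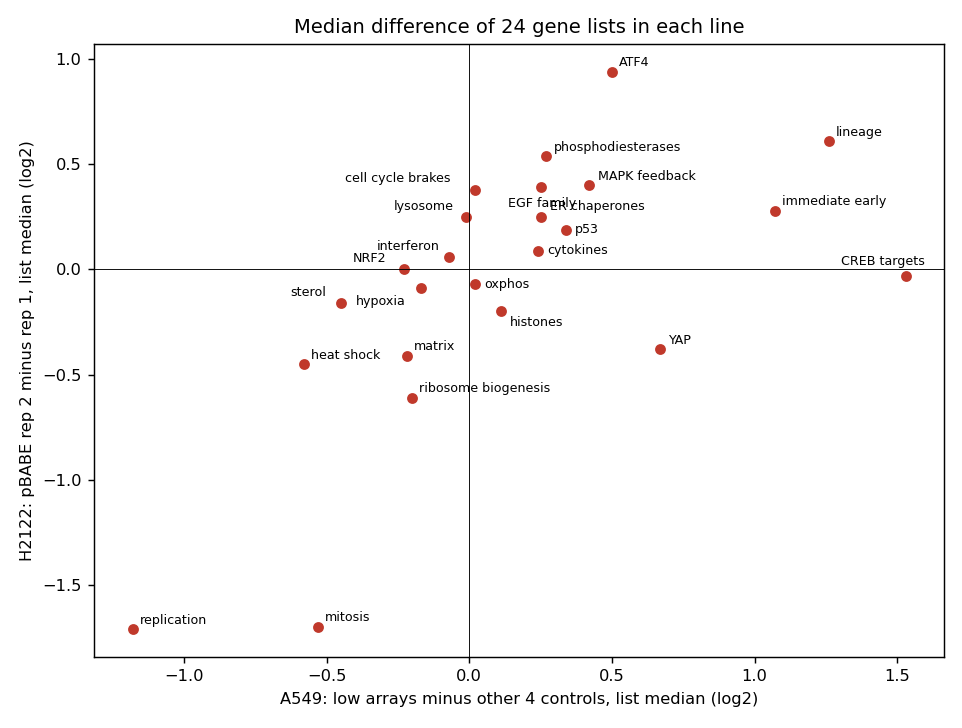
Median log2 difference of 24 gene lists in A549 (horizontal, low pair minus the other 4 controls) and in H2122 (vertical, pBABE replicate 2 minus replicate 1). Replication genes lie low in both lines (−1.18 and −1.71), ATF4 genes high in both (0.50 and 0.94), and CREB targets at 1.53 and −0.03. In A549 the ATF4 median was 0.14 within K78I. K78I replicate 3, outside the low pair, had the highest ATF4 list mean of the controls (0.58, beside 0.48 and 0.23 on the low pair).

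The comparison of LKB1 with the A549 controls, which the study was built for, shares its control arrays with the split above, so its values are set beside those of the low pair and are no separate evidence. With all arrays, limma called 1515 of 17958 genes at a Benjamini-Hochberg adjusted p under 0.05 (8.44%), 985 higher with LKB1 (5.49%) and 530 lower (2.95%). After median centring these were 774 and 718. Without the low pair it called 1342 (7.47%), 867 higher (4.83%) and 475 lower (2.65%), and 1143 genes were called both ways. Without the 2 arrays whose STK11 goes against the label it called 1758. Without LKB1 replicate 1 the count was 844 and without LKB1 replicate 3 it was 715.

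Of the 359 genes higher on the low pair, 79 fell with LKB1 and 0 rose with all arrays, at a median of −0.80. Without the low pair 87 of them fell and 13 rose, at a median of −0.29. Of the 235 lower genes, 32 rose and 0 fell with all arrays, at a median of 0.49, and without the low pair 38 rose and 11 fell, at a median of 0.06. Over all genes 2.95% fell and 5.49% rose with all arrays, and without the low pair 2.65% fell and 4.83% rose. The median over all genes was −0.02 both ways. Since the low pair makes up 2 of the 6 controls, a shift of these medians toward 0 without it follows from how the genes were chosen.

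Single genes differed in how far the LKB1 value changed without the low pair, which leaves 3 LKB1 arrays against 4 controls in place of 6. TXNIP differed by −2.04 ± 1.17 between LKB1 and controls with all arrays (SE, limma adjusted p = 0.345) and by −0.36 ± 0.54 without the pair (adjusted p = 0.802). The cell cycle genes gave 0 calls of 65 either way, and the median of the replication list went from 0.30 to −0.10. MKI67 went from 0.21 ± 0.32 (adjusted p = 0.782) to −0.10 ± 0.29 (adjusted p = 0.913), and CCNE2 from 0.88 ± 0.56 (adjusted p = 0.4) to 0.23 ± 0.39 (adjusted p = 0.838). CDKN1A went from 0.42 ± 0.29 (limma adjusted p = 0.464) to a called rise of 0.82 ± 0.16 (limma adjusted p = 0.00565). The 4 other controls lay below the LKB1 arrays (8.15 to 8.28). CDKN1A is one of the genes higher on the low pair, so a lower control mean without the pair follows from how it was chosen. The call without the pair is therefore a description and no separate evidence.

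Phosphodiesterases and several CREB targets fell with LKB1 both ways. PDE3A fell by 3.12 ± 0.45 with all arrays (SE, limma adjusted p = 0.000468) and by 2.65 ± 0.38 without the low pair (adjusted p = 0.000792). PDE4D fell by 0.97 ± 0.17 (adjusted p = 0.00226) and by 0.89 ± 0.19 (adjusted p = 0.00936). Of the 10 phosphodiesterases 7 fell and 1, PDE8B, rose with all arrays, and 7 fell and 0 rose without the pair. Of the 20 CREB targets 9 fell and 1, TSC22D1, rose with all arrays, and the counts without the pair were 9 and 1. The list median went from −1.09 to −0.60. Over all genes 2.95% fell and 5.49% rose with all arrays, and 2.65% fell and 4.83% rose without the pair. NR4A1 fell by 2.56 ± 0.54 (adjusted p = 0.00786) and by 1.83 ± 0.31 (adjusted p = 0.00251).

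Other calls were less settled. PPARGC1A fell by 3.30 ± 0.79 (SE, limma adjusted p = 0.0164) and by 2.34 ± 0.56 without the low pair (adjusted p = 0.0211), and its call was lost without LKB1 replicate 2 (adjusted p = 0.0685) or LKB1 replicate 3 (adjusted p = 0.0781). EGR1 fell by 2.42 ± 0.71 (adjusted p = 0.0496) and by 1.5 ± 0.40 (adjusted p = 0.0366). Its call was lost without LKB1 replicates 1, 2 or 3 or K78I replicates 2 or 3 (adjusted p = 0.1, 0.12, 0.216, 0.0853 and 0.0741). NR4A3 differed by −2.15 ± 0.65 (adjusted p = 0.055) and was called without the pair, at −1.23 ± 0.26 (adjusted p = 0.0107). It was also called without K78I replicate 1, 2 or 3 or pBABE replicate 3 (adjusted p = 0.0179, 0.027, 0.0387 and 0.0173).

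DUSP4 behaved like NR4A3, at −1.86 ± 0.58 with all arrays (SE, limma adjusted p = 0.063) and −1.02 ± 0.25 without the low pair (adjusted p = 0.0218). It was called too without K78I replicate 1 or 3 or pBABE replicate 3 (adjusted p = 0.0275, 0.0481 and 0.0196). FGA fell by 3.85 ± 0.68 (adjusted p = 0.00233) and by 2.98 ± 0.45 (adjusted p = 0.00117). Of the 19 lineage genes 10 fell with all arrays and 9 without the pair, beside 2.95% and 2.65% of all genes. Without the 2 arrays whose STK11 goes against the label DUSP4 and NR4A3 were called (adjusted p = 0.00265 and 7.34e-05). For NR4A1, NR4A3, PPARGC1A, EGR1, DUSP4 and FGA the difference was smaller in size without the low pair, and its SE was smaller too. Each of these genes is higher on the low pair. A smaller difference and less spread among the controls without it follow from how they were chosen. The calls of NR4A3 and DUSP4 without the pair rest on the same choice and are no separate evidence.

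Between the control constructs, K78I against pBABE, limma called 0 genes with all arrays (0.00%), where 472 had an unadjusted p under 0.05 (2.63%) and the lowest adjusted p was 0.999. Without the low pair, which holds 1 array labelled with each construct, it called 0 (0.00%), with 645 at an unadjusted p under 0.05 (3.59%) and a lowest adjusted p of 0.289. Without pBABE replicate 3 it called 2. Without the 2 arrays whose STK11 goes against their label it called 35, 9 higher and 26 lower. Of the separated genes 0 of 359 and 0 of 235 were called with all arrays.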

How the data were processed

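RNA was measured on 17 one-colour Affymetrix arrays, and the deposited values are log2 intensities per probe set computed with RMA; the submitters' processing notes name Affymetrix Expression Console 1.1. RMA gives all arrays 1 distribution of probe values, so a shift of all RNA alike cannot be seen. The files hold no detection calls. No coordinates were taken from the files, whose build the sources used here do not give.

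The platform annotation gave 1 gene symbol for 19181 of 33297 probe sets and several for 2055, and did not list 12061. The brightest probe set was kept for each of 895 genes with several, which left 17958 genes. Means of log2 values were compared between the low pair and the other 4 controls without a test. LKB1 against controls and K78I against pBABE were tested with limma 3.58.1 in R 4.3.3, in 1 fit to all 17 arrays by line and construct (11 residual and 3.8 prior degrees of freedom), with Benjamini-Hochberg adjustment over all genes. On simulated data for LKB1 against controls over 17958 genes, 34.3% of genes shifted by 0.5, 85.1% of those shifted by 1 and 97% of those shifted by 2 log2 units were recovered, and 7.69% of calls were false. In that simulation noise was drawn independently for each gene and array, and no array differed in many genes together as the low pair does. The simulated rates may therefore not hold for the measured arrays. Figures were drawn with matplotlib 3.10.9.

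The members, gene lists and tests were chosen with earlier results of these data known. Genes named are the 4 markers, STK11, the 12 highest and 12 lowest separated genes, up to 6 members of each list with the largest differences, and list members picked after their values had been seen. Alternatives changed the scaling, the probe set rule, a filter on the dimmest 30% of genes, the fold, the prior, array weights, the arrays in the fit and a replicate block, and left out arrays.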

Additional observations from a re-analysis of the deposited data

Results flagged for a closer look

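In 3 gene lists the 2 low arrays moved in opposite directions within their constructs, each as 1 array against the mean of 2, and the difference between the constructs was not tested. The mean of the 15 replication-dependent histones was −0.49 on pBABE replicate 1 against pBABE replicates 2 and 3 and 0.37 on K78I replicate 2 against K78I replicates 1 and 3, a difference of 0.86. The mean of the 6 fibroblast markers was −0.15 and 0.06, a difference of 0.21, at levels near the low end of the scale. The mean of 219 small nucleolar and spliceosomal RNAs was 0.08 and −0.29, a difference of −0.37.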

How the results depend on the processing

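Counts of separated genes, 359 higher and 235 lower on the low pair, were 974 and 1003 at 1.5-fold, 232 and 48 without the 2 arrays whose STK11 goes against the label, 628 and 670 within K78I, and 102 lower within pBABE. Leaving out each control array in turn gave 262 to 678 higher and 73 to 684 lower. In H2122 the counts of 557 and 523 were 1810 and 1600 at 1.5-fold. Under the alternatives run, the direction of all 9 single genes compared this way (MKI67, TOP2A, PDE4D, EGR1, TXNIP, CCNE2, NR4A3, PPARGC1A and DDIT3) was kept. In each of these genes both low arrays lie beyond all of the other controls. Leaving out arrays could therefore not reverse the direction, and MKI67, TOP2A and CCNE2 were also used to choose the arrays.

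The 1515 calls for LKB1 against controls became 3844 with array weights and 875 with A549 arrays only, a fit with fewer samples. They ranged from 715 to 1924 when each array was left out. For K78I against pBABE, 0 calls became 35 without the 2 arrays whose STK11 goes against the label, and 0 to 2 when each array was left out. MKI67 reversed to −0.10 without the low pair, as leaving out controls chosen for low cell cycle genes raises the control mean. With A549 arrays only, the calls of NR4A1, PPARGC1A and EGR1 were lost (adjusted p = 0.0677, 0.0662 and 0.165). NR4A3 was called after median centring (adjusted p = 0.0461) and without the dimmest 30% of genes (adjusted p = 0.0467). With array weights CDKN1A, NR4A3 and DUSP4 were called (adjusted p = 0.00806, 0.00131 and 0.00345).

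With the replicate number as a block, limma called 1421 and 0 genes, and EGR1 was no longer called (adjusted p = 0.0616). The correlations of same-numbered deviations from the group means were 0.35, −0.64 and −0.22 for number 1, 0.16, −0.30 and −0.03 for number 2, and 0.02, 0.30 and 0.12 for number 3. Because the low pair weighs on the means and deviations of its groups, these values cannot settle whether the numbers pair the samples.

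The number of arrays, 2 against 4, and the absence of detection calls limit all values of dim genes.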

Other observations

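Among 8 housekeeping genes, ACTB and GAPDH differed by −0.07 and −0.10 between the low pair and the other 4 controls, while HPRT1, an enzyme of purine salvage, was 8.55 and 8.07 on the low pair and 9.15, 9.39, 9.26 and 8.90 on pBABE replicates 2 and 3 and K78I replicates 1 and 3, a difference of −0.87 without overlap. Of the partners of LKB1, STRADB differed by −0.61 without overlap, and STRADA and CAB39 overlapped at −0.13 and 0.19.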
